A study of Mus musculus with 18 samples.

Results

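Genes that modify tubulin or bind microtubules were followed in C2C12 cells, a mouse muscle line that divides as single-nucleus myoblasts and fuses into myotubes on differentiation. They were 10 genes taken by name from 47311 genes with a deposited transcript, and the estimated read counts of their transcripts were summed per gene. They are Vash1, Vash2, Svbp, Ttl, Atat1, Hdac6, Map1a, Map1b, Map4 and Stmn1. All 10 had counts in all 18 libraries and passed the filter on low counts, so each was tested in every comparison. Each stage held 3 groups of 3 libraries labelled as biological replicates: myotubes with Setd2 siRNA 1, myotubes with Setd2 siRNA 2, myotubes with control siRNA, and the same 3 treatments in myoblasts. Setd2 encodes a methyltransferase that marks histones of transcribed genes, and the study depleted it before and after differentiation. RNA of all groups was polyA-selected and was taken right after the cells had been stretched, so the control cells were stretched too. The cells are 1 line, and the labels do not say that replicates came from separate cultures, so p-values measure the spread between these libraries, which may be technical.

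Microtubules are polymers of alpha- and beta-tubulin whose tails carry removable marks. Vasohibins cut the last tyrosine from alpha-tubulin, with Svbp as their obligate small partner, and the ligase Ttl puts it back. Atat1 acetylates alpha-tubulin inside the microtubule, and the deacetylase Hdac6 takes the acetyl group off. MAPs coat and stabilise the polymer, whereas stathmin (Stmn1) holds free tubulin dimers and promotes disassembly. When myoblasts fuse, their microtubules are rebuilt into long parallel bundles rich in detyrosinated and acetylated tubulin, and in mature muscle detyrosinated microtubules contribute to the response to stretch.

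Estimated counts summed to 43.5 to 66.6 megareads per library. Setd2 itself was at 58.2, 37.9 and 38.1 CPM (counts per megaread, scaled by TMM) with siRNA 1 and 38.2, 34.8 and 33.6 CPM with siRNA 2 in myotubes, against 105, 105 and 99.3 CPM in control myotubes. In myoblasts it was at 42.6, 42.8 and 35.1 CPM with siRNA 1 and 46.1, 45.1 and 40.3 CPM with siRNA 2, against 99.9, 111 and 121 CPM in controls. All 6 myotube markers were higher in control myotubes than in control myoblasts, with a summed TPM of 11751 to 12431 against 45.3 to 121. TPM is an estimated count corrected for transcript length and then scaled to the same total in each library. Of 5 neuronal markers, Rbfox3, Snap25 and Elavl4 were at 0 in all 3 control myoblast libraries and Syt1 at most 0.00662 TPM, but the neurofilament gene Nefl was at 1.31, 3.11 and 2.07 TPM in control myotubes, against 219.8, 259 and 247 TPM in control myoblasts. The adipocyte markers summed to at most 0.284 TPM in any library. Fibroblast markers were also higher in control myotubes, where the 5 summed to 146 to 198 TPM, against 23.2 to 32.8 TPM in control myoblasts. All 4 of them that were tested were called higher (39.4% of all genes were). The column of myoblast siRNA 2 replicate 3 is named SETD3 where its label has SETD2, and the name of myotube control replicate 3 holds NT_2 where other controls hold NT_1. Library names start with 1 of 2 prefixes in each stage (C13 and D1 in myotubes, C14 and D2 in myoblasts), spread unevenly over the groups, and their meaning is not given. No prefix is shared by the stages, so stage and prefix cannot be told apart. Within a stage, deviations of libraries in different groups correlated positively when the prefix was the same and negatively when it differed. The main fits had no term for the prefix. On the TPM scale more of the called genes were lower: limma on log2(TPM + 0.1) called 777 higher and 1990 lower with siRNA 1 in myoblasts, where edgeR called 1807 and 1315.

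Differentiation of the control cells moved every one of the 10 genes past the threshold (adjusted p under 0.05, edgeR's quasi-likelihood test, Benjamini-Hochberg over 16930 genes). Of the 10, 6 were higher in control myotubes than in control myoblasts and 4 were lower, beside 77.5% of all genes called (39.4% higher and 38.1% lower). The median log2 fold change of the 10 genes was 0.37, against 0.004 over all genes tested. In bulk RNA, fewer cells of a type and less RNA per cell cannot be told apart.

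**Figure D1:**
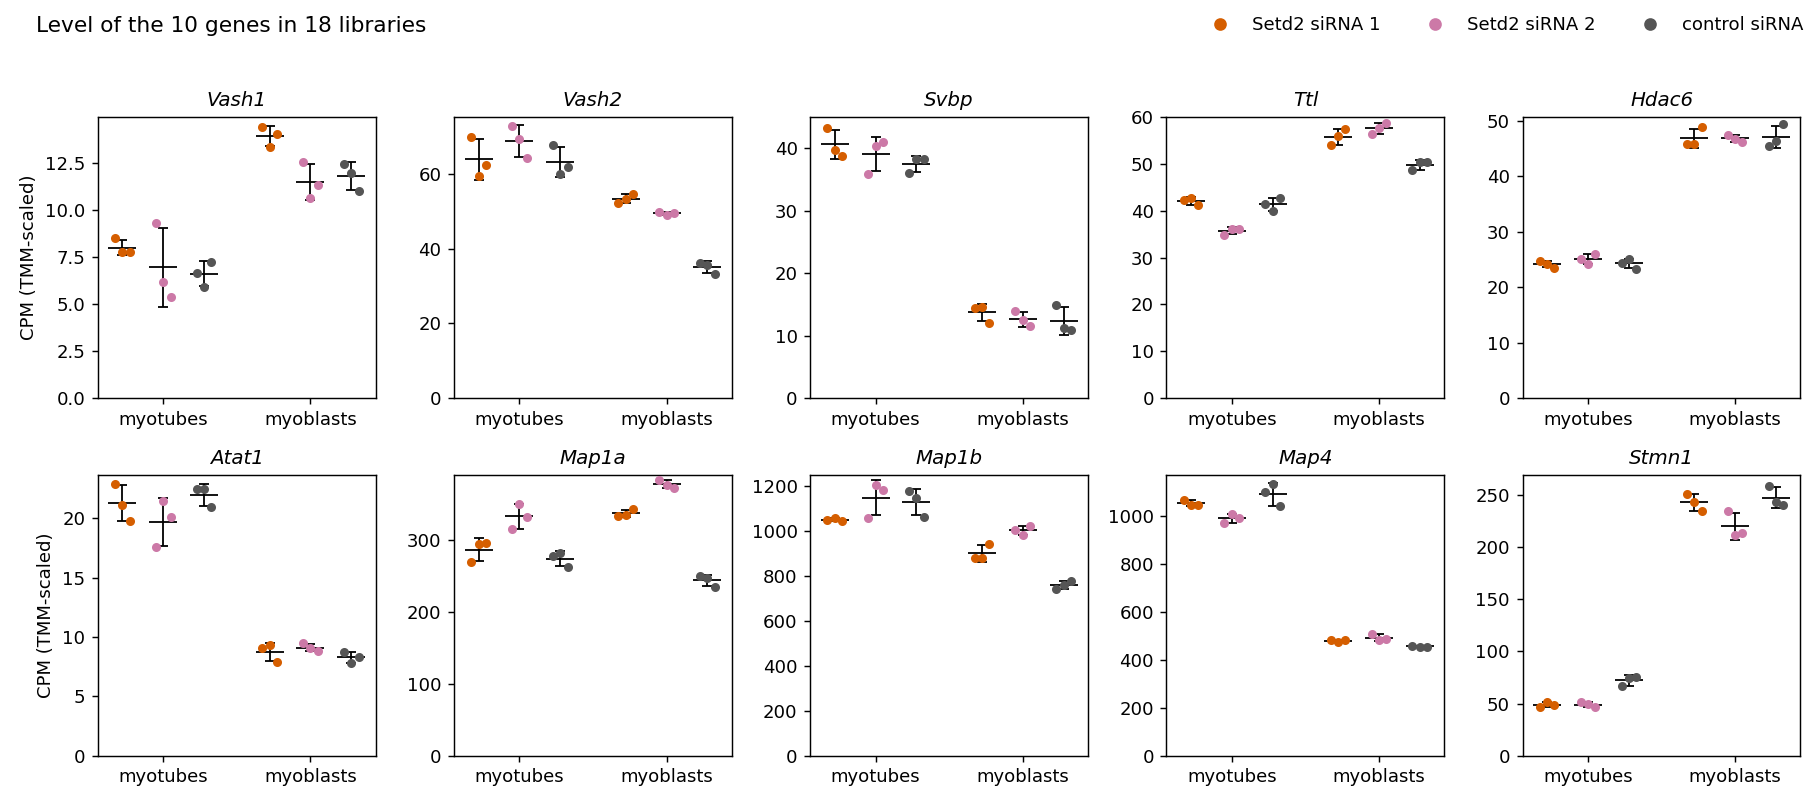
CPM (vertical axes, from 0) of each of the 10 genes in 18 libraries, grouped by stage and siRNA; points are libraries and bars the mean ± SD of 3. Svbp, Atat1, Map4, Vash2 and Map1b sit higher in all 9 myotube libraries than in all 9 myoblast libraries. Stmn1, Hdac6, Ttl and Vash1 sit lower, and Map1a overlaps between the stages. Vash2, Map1a, Map1b, Ttl and, by a small distance, Map4 also stand apart from their controls in both siRNA groups of myoblasts.

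The pair of detyrosinating enzymes moved in opposite directions. Vash2 was at 67.8, 59.9 and 61.9 CPM in control myotubes, against 36.2, 35.7 and 33.4 CPM in control myoblasts. The groups did not overlap, and Vash2 was 1.80-fold higher in control myotubes (log2 0.85 ± 0.06 SE, adjusted p = 4.55e-11). Vash1 was at 6.66, 5.93 and 7.27 CPM in control myotubes, against 12.5, 12 and 11 CPM in control myoblasts, a log2 fold change of -0.84 ± 0.14 (adjusted p = 3.06e-05). Corrected for length, Vash2 stood at 31.9 ± 1.68 TPM and Vash1 at 5.06 ± 0.57 TPM in control myotubes (SD, n = 3), against 18.4 ± 0.44 TPM and 8.91 ± 0.55 TPM in control myoblasts. Their shared partner rose most of the enzyme genes. Svbp was at 35.9, 38.3 and 38.2 CPM in control myotubes, against 14.9, 11.2 and 11 CPM in control myoblasts. Every control myotube library was above every control myoblast library, 3.03-fold in the mean (log2 1.60 ± 0.11, adjusted p = 3.88e-10).

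Ttl, the opposing ligase, was slightly lower. Ttl was at 41.4, 40.02 and 42.7 CPM in control myotubes, against 48.7, 50.5 and 50.4 CPM in control myoblasts, 0.83-fold (log2 -0.27 ± 0.04, adjusted p = 1.24e-06). The acetylation pair also separated. Atat1 was at 22.5, 22.5 and 20.9 CPM in control myotubes, against 8.75, 7.81 and 8.32 CPM in control myoblasts. Hdac6 was at 24.4, 25.1 and 23.3 CPM in control myotubes, against 45.5, 46.4 and 49.3 CPM in control myoblasts. Neither gene's groups overlapped: the acetyltransferase gene was 2.65-fold higher (log2 1.4 ± 0.08, adjusted p = 1.58e-12) and the deacetylase gene 0.52-fold its myoblast level (log2 -0.95 ± 0.04, adjusted p = 5.26e-14). Exons of Atat1 overlap those of Gm16279 on the other strand, and whether the libraries keep strand is not given, so their reads cannot be told apart. Gm16279 held 0.863, 0.760 and 1.02 TPM in control myotubes and 1.17, 1.23 and 1.29 TPM in control myoblasts, where the mean of Atat1 was 29.3 and 12.4 TPM.

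Of the 3 MAP genes, Map4 changed most. Map4 was at 1097, 1132 and 1039 CPM in control myotubes, against 459, 454 and 453 CPM in control myoblasts, 2.39-fold higher (log2 1.26 ± 0.03, adjusted p = 1.03e-17). Map1a and Map1b encode long structural MAPs, each cut into a heavy and a light chain and best known from neurons. Map1b was at 1180.1, 1149 and 1064 CPM in control myotubes, against 742, 761 and 778 CPM in control myoblasts (log2 0.57 ± 0.05, adjusted p = 5.2e-10). Map1a was at 278, 283 and 263 CPM in control myotubes, against 249.7, 248 and 235 CPM in control myoblasts (log2 0.17 ± 0.04, adjusted p = 0.0015). Map1a had the smallest difference of the 10, though its control groups did not overlap. Stmn1 had the largest. Its exons overlap those of Gm23634, which was at 0 in all libraries. Stmn1 was at 66.5, 74.8 and 75.7 CPM in control myotubes, against 259, 243 and 241 CPM in control myoblasts, 0.29-fold the myoblast level (log2 -1.77 ± 0.06, adjusted p = 1.18e-16).

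These changes reordered the genes. Per length, control myotubes held Map4 (492 ± 16.9 TPM, SD, n = 3), Map1b (179 ± 8.0), Stmn1 (155 ± 11.6), Svbp (124 ± 4.90), Map1a (51.5 ± 2.54), Vash2 (31.9 ± 1.68), Atat1 (29.3 ± 1.02), Ttl (18.5 ± 0.97), Hdac6 (13.6 ± 0.44) and Vash1 (5.06 ± 0.57 TPM), in that order. Only the neighbours Vash2 and Atat1 overlapped in range. Control myoblasts instead held Stmn1 first (527 ± 18.6 TPM), then Map4 (184 ± 2.90), Map1b (118 ± 2.65), Map1a (45.9 ± 2.01), Svbp (40.7 ± 7.26), Hdac6 (25.2 ± 1.19), Ttl (22.0 ± 0.23), Vash2 (18.4 ± 0.44), Atat1 (12.4 ± 0.50) and Vash1 (8.91 ± 0.55 TPM). There only Map1a and Svbp overlapped.

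Map4 also changed the transcripts it was counted in. In the GENCODE M21 annotation of mm10, Map4 lies on the plus strand of chromosome 9 at chr9:109931460-110083955, 448.6 kb before the start of Setd2 on the same chromosome, with 9 protein-coding genes starting between them. Of its 17 transcripts in the tables, only Map4-202 contains a coding exon of 3180 bases at chr9:110037288-110040467, a length divisible by 3. In mouse, a muscle form of MAP4 with a large extra exon is known, and its loss has been described as disturbing myotube formation. The joins that set Map4-202 apart from the main other transcript, Map4-205, are shown because reads across them tell the forms apart; capitals mark bases of the long exon and lower case its neighbours, 5′ to 3′, from the GENCODE transcripts.
Map4-202, entry into the long exon: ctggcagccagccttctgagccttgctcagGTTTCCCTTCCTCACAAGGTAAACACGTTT
Map4-202, exit from the long exon: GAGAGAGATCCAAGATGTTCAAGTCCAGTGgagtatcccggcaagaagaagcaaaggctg
Map4-205, the same neighbours joined directly: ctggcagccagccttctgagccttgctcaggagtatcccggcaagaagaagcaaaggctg

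Map4-202 held 35.3, 35.7 and 34.1% of the Map4 counts in control myotubes, against 0.951, 0.686 and 0.960% in control myoblasts. On the TPM scale it was at 172, 179 and 159.7 TPM in control myotubes and 1.92, 1.37 and 1.91 TPM in control myoblasts. All 3 myotube libraries were far above all 3 myoblast libraries, a 99.7-fold difference in the fit of all transcripts (log2 6.64 ± 0.13, adjusted p = 1.38e-14, 45% of transcripts called, 23.6% higher and 21.4% lower). Map4-205 was 1.77-fold higher (log2 0.82 ± 0.04, adjusted p = 5.83e-11), although its share was 47.8, 48.3 and 48.3% against 67.6, 67.4 and 66.6%. Map4-201 was lower, with a log2 fold change of -0.25 ± 0.06 (adjusted p = 0.00262). Map4-202 is annotated over 4322 bases, all coding, without the ends of the messenger, so how many reads of shared exons it received depends on the authors' quantifier.

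**Figure D2:**
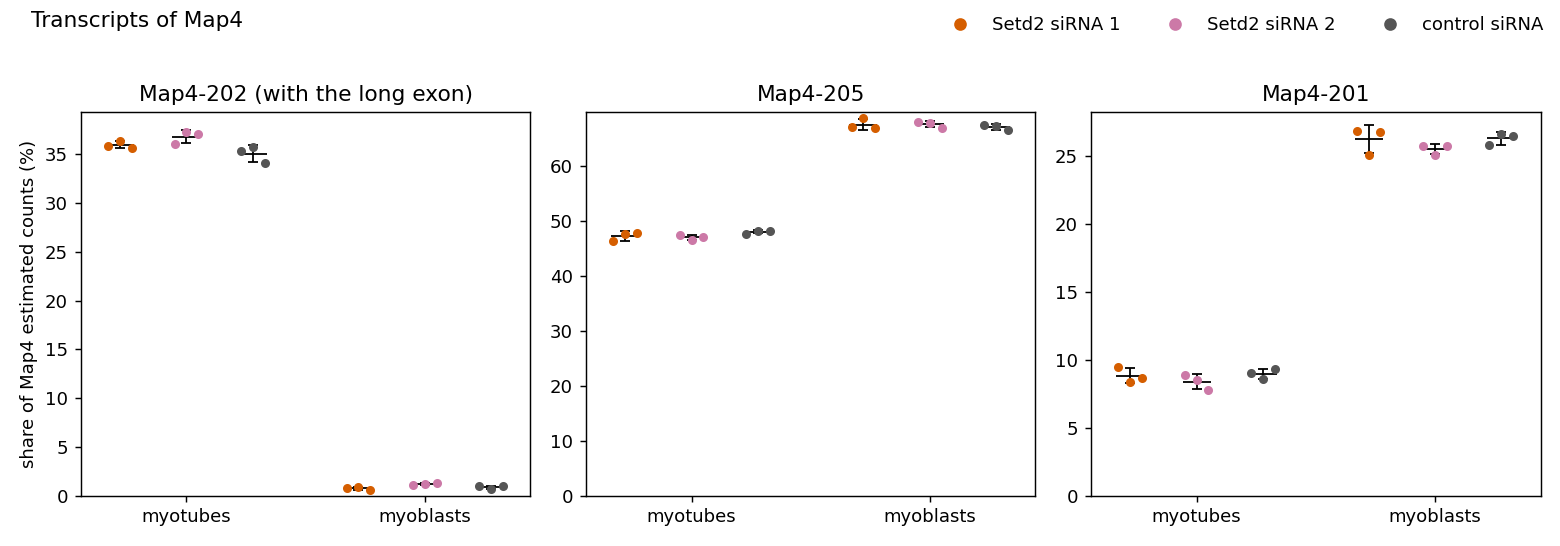
Share (%) of the estimated Map4 counts given to Map4-202, Map4-205 and Map4-201 in each library, by stage and siRNA; bars are the mean ± SD of 3 libraries and each axis starts at 0. Map4-202 takes 34.1% to 37.3% in the 9 myotube libraries and 0.600% to 1.26% in the 9 myoblast libraries.

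Among transcripts that held at least 10% of a gene's counts in some group, called changes of the other genes on differentiation were smaller. The largest was Atat1-212, with a log2 fold change of 2.81 ± 0.53 (adjusted p = 0.000449). Stmn1-201 had -1.73 ± 0.07 (1.37e-11), Atat1-201 1.70 ± 0.21 (5.77e-06) and Svbp-201 1.61 ± 0.12 (2.24e-08). Atat1-203 had -7.98 ± 2.85 and did not pass (adjusted p = 0.0505). Vash2-202 held 94.8% of Vash2 counts in control myotubes and 88.6% in control myoblasts and rose by a log2 of 0.99 ± 0.07 (adjusted p = 8.85e-09). Map1a-201, the longer of its main pair, rose by 0.49 ± 0.06 (adjusted p = 5.98e-06), beside 0.17 ± 0.05 for Map1a-202 (adjusted p = 0.0152). Vash1 and Map1b each have 1 transcript in these tables. Of 53 transcripts tested, 20 rose and 12 fell, beside 23.6% and 21.4% of all transcripts. Over the 19 that held at least 10% of a gene's counts in some group, 9 rose and 6 fell.

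In myoblasts, Setd2 depletion raised a set of these genes that spanned both the detyrosinating and the retyrosinating enzymes and the large MAPs. Vash2, Ttl, Map1a and Map1b rose with each siRNA, 4 of 10, beside 7.69% of all 15586 genes tested that rose with each; none of the 10 fell with each, beside 4.25%. With siRNA 1, 5 rose and none fell (11.6% and 8.44% of all genes, together 20%). With siRNA 2, 5 rose and 1 fell (17.1% and 16.5%, together 33.5%). The median log2 fold change of the 10 was 0.16 with siRNA 1 and 0.13 with siRNA 2, against 0.005 and 0.00 over all genes. The siRNA groups share their control libraries. The 10 genes were chosen with earlier results of these data known, so their counts beside those of all genes are a description only.

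Vash2 was at 53.6, 54.8 and 55.6 CPM with siRNA 1 and 51.1, 50.3 and 50.9 CPM with siRNA 2, against 37, 36.5 and 34.1 CPM in control myoblasts. All 6 depleted libraries were above all 3 controls. The rise was 1.52-fold with siRNA 1 (log2 0.61 ± 0.04, adjusted p = 6.02e-07) and 1.42-fold with siRNA 2 (log2 0.50 ± 0.04, adjusted p = 9.71e-07). Vash1 was at 14.8, 13.8 and 14.3 CPM with siRNA 1 and 12.9, 10.9 and 11.6 CPM with siRNA 2, against 12.8, 12.3 and 11.3 CPM in control myoblasts. The siRNA 1 libraries of Vash1 lay above the controls (log2 0.24 ± 0.07, adjusted p = 0.0321), whereas those of siRNA 2 overlapped them (-0.03 ± 0.07, adjusted p = 0.769). The Vash1 call with siRNA 1 was lost without any one of siRNA 1 replicates 1, 2 and 3 and control replicates 2 and 3 (adjusted p 0.0535 to 0.138), and in limma on TPM (0.145).

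Ttl was at 55.4, 57.6 and 58.5 CPM with siRNA 1 and 57.8, 59.1 and 60.3 CPM with siRNA 2, against 49.8, 51.5 and 51.5 CPM in control myoblasts. The ligase gene was thus above its controls in all 6 depleted libraries, by 1.12-fold (log2 0.17 ± 0.03, adjusted p = 0.00473) and 1.16-fold (0.21 ± 0.03, adjusted p = 0.000432). On the TPM scale with limma, the siRNA 1 value was 0.09 and did not pass (adjusted p = 0.148). Svbp, Atat1 and Hdac6 did not pass with either siRNA. Svbp was at 14.8, 15.1 and 12.3 CPM with siRNA 1 and 14.2, 12.8 and 11.8 CPM with siRNA 2, against 15.3, 11.4 and 11.2 CPM in controls, and its groups overlapped. Atat1 had log2 fold changes of 0.08 ± 0.08 with siRNA 1 and 0.14 ± 0.08 with siRNA 2, whose 3 libraries lay above the controls without passing (adjusted p = 0.211). Hdac6 had 0.00 ± 0.04 with siRNA 1 and 0.00 ± 0.04 with siRNA 2.

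Map1a was at 343, 345 and 349 CPM with siRNA 1 and 394, 387 and 383 CPM with siRNA 2, against 256, 253 and 240.1 CPM in control myoblasts. No depleted library overlapped the controls, and siRNA 2 lay above siRNA 1. Map1a was 1.39-fold higher with siRNA 1 (log2 0.47 ± 0.03, adjusted p = 5.69e-07) and 1.55-fold higher with siRNA 2 (log2 0.63 ± 0.03, adjusted p = 1.97e-08). Exons of Map1a overlap those of Ppip5k1, an inositol phosphate kinase gene on the other strand, whose reads cannot be told apart from those of Map1a there. Ppip5k1 moved the other way, at 8.28, 7.18 and 8.69 TPM with siRNA 1 and 7.31, 7.89 and 7.52 TPM with siRNA 2, against 11.7, 10.9 and 12.6 TPM in controls. Map1b was at 903, 908 and 963 CPM with siRNA 1 and 1032, 1008 and 1051 CPM with siRNA 2, against 759, 778 and 795 CPM in control myoblasts. Its rise was 1.19-fold (log2 0.25 ± 0.03, adjusted p = 0.000162) and 1.33-fold (0.41 ± 0.03, adjusted p = 1.24e-06), again with no overlap.

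Map4 and Stmn1 moved little in myoblasts. Map4 was at 493, 487 and 489.5 CPM with siRNA 1 and 521, 495 and 497 CPM with siRNA 2, against 469.7, 464 and 463 CPM in control myoblasts. The Map4 value passed with siRNA 2 (log2 0.12 ± 0.03, adjusted p = 0.00498) but not with siRNA 1 (0.07 ± 0.03, adjusted p = 0.0751), and not in limma on TPM with siRNA 2 (0.06, adjusted p = 0.157). With siRNA 1 it passed with prefix in the model (0.06, adjusted p = 0.0255) and with the replicate block (0.07, adjusted p = 0.0412), so Map4 rose with each siRNA in those fits. Stmn1 was at 258, 251 and 239 CPM with siRNA 1 and 241, 217 and 219 CPM with siRNA 2, against 265, 248 and 246 CPM in control myoblasts. Stmn1 fell with siRNA 2 (log2 -0.17 ± 0.05, adjusted p = 0.0155) and had -0.02 ± 0.05 with siRNA 1 (adjusted p = 0.786). Its siRNA 2 call was lost without siRNA 2 replicate 2 (adjusted p = 0.068) or the SETD3-named replicate 3 (0.0678). With prefix in the model Stmn1 also passed with siRNA 1 (-0.06, adjusted p = 0.0406), and so was lower with each siRNA in that fit.

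The rises had the same sign within both prefixes, at 1 or 2 libraries a group and so with no test. Vash2 differed from its controls by a log2 of 0.55 with siRNA 1 and 0.47 with siRNA 2 among C14 libraries, and by 0.66 and 0.52 among D2 libraries. Map1a gave 0.43 and 0.62 among C14, and 0.50 and 0.64 among D2. Map1b gave 0.26 to 0.44 and 0.29 to 0.39, and Ttl 0.18 to 0.21 in each prefix. Without the SETD3-named library, 5 genes were called with siRNA 1 and 5 with siRNA 2, all higher; Vash2, Ttl, Map1a and Map1b were among both, with Vash1 the fifth with siRNA 1 and Map4 with siRNA 2. Other measures differed in depleted myoblasts with 1 or both siRNAs. The 5 fibroblast markers, none at 0, summed to 30.9 to 42.9 TPM with siRNA 1 and 48.3 to 70.7 TPM with siRNA 2, against 23.2 to 32.8 TPM in controls. The siRNA 1 sums overlapped the controls. Of 3 markers tested, none was called with siRNA 1 and 1 rose with siRNA 2 (11.6% and 17.1% of all genes rose). Sequence like ribosomal RNA took 3.56% to 3.90% of counts with siRNA 1, against 1.20% to 1.36% in controls. With siRNA 2 it took 1.45%, 1.90% and 4.09%, the last in the SETD3-named library. Their part in the rises was not tested.

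Single transcripts were fitted from the same reads as the gene sums, so their calls are no separate support for the rises. Vash1-201, the only Vash1 transcript, did not pass with siRNA 1 (log2 0.25 ± 0.16, adjusted p = 0.612), where the gene did. Stmn1-201 did not pass with siRNA 2 (-0.15 ± 0.07, adjusted p = 0.246), where the gene did. Of the 10 genes' transcripts, 6 rose with siRNA 1 and 9 with siRNA 2, of 53 tested, with none lower (2.98% and 7.98% of all transcripts called; 2.06% rose and 0.919% fell with siRNA 1, and 4.52% rose and 3.46% fell with siRNA 2). The siRNA 1 count was 3 without control replicate 1 and 3 without siRNA 1 replicate 3. Vash2-202 rose by a log2 of 0.66 ± 0.07 with siRNA 1 (adjusted p = 4.27e-05) and 0.55 ± 0.07 with siRNA 2 (7.77e-05). Map1a-202 rose by 0.51 ± 0.05 (4.46e-05) and 0.68 ± 0.05 (9.42e-07), and Map1a-201 by 0.25 ± 0.06 (0.0331) and 0.46 ± 0.06 (0.000125). The long-exon transcript Map4-202 was at 1.66, 1.68 and 1.19 TPM with siRNA 1 and 2.47, 2.48 and 2.56 TPM with siRNA 2, against 1.92, 1.37 and 1.91 TPM in controls. It rose 1.51-fold with siRNA 2 (log2 0.59 ± 0.12, adjusted p = 0.00608) and had -0.12 ± 0.13 with siRNA 1 (adjusted p = 0.856). Even there it held 1.14, 1.18 and 1.26% of Map4 counts. The 6 myotube markers summed to 83.9 to 171 TPM with siRNA 2 and 48.3 to 122 TPM with siRNA 1, against 45.3 to 121 TPM in control myoblasts.

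In myotubes, Stmn1 fell with each siRNA, and it was the 1 gene of the 10 called with each. With siRNA 1 it was the only call, with none higher (9.57% of 16097 genes lower and 11% higher, together 20.5%). With siRNA 2, Map1a rose and Stmn1, Ttl and Map4 fell (15.8% of genes higher and 16.4% lower, together 32.2%). Falls with each siRNA made up 6.27% of all genes and rises 7.14%. The median log2 fold change of the 10 was 0.01 with siRNA 1 and 0.03 with siRNA 2. The 4 genes that rose with each siRNA in myoblasts did not do so in myotubes.

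Stmn1 was at 46.4, 49.95 and 47.1 CPM with siRNA 1 and 50.5, 48 and 45.1 CPM with siRNA 2, against 65.2, 72.5 and 74.1 CPM in control myotubes. All 6 depleted libraries were below all 3 controls, and the siRNAs gave the same size, 0.68-fold (log2 -0.56 ± 0.05, adjusted p = 5.54e-05 with siRNA 1 and 1.88e-05 with siRNA 2). Within prefixes the log2 difference was -0.58 and -0.46 among C13 libraries and -0.58 and -0.64 among D1 libraries. Stmn1 is known to be abundant in dividing cells, and a list of 20 mitosis genes moved with it. All 20 fell with siRNA 1 and 19 fell with siRNA 2, with medians of -0.52 and -0.41 (9.57% and 16.4% of all genes fell). Their summed level was 309 to 341 TPM with siRNA 1 and 325.5 to 343 TPM with siRNA 2, against 442 to 492 TPM in control myotubes. Top2a, a topoisomerase of dividing cells, fell by 0.67 and 0.58 on the log2 scale, and the cyclin gene Ccnb1 by 0.63 and 0.53. In myoblasts 10 genes of the same list rose and 1 fell with siRNA 1, and 12 rose and 1 fell with siRNA 2 (11.6% and 17.1% of all genes rose, 8.44% and 16.5% fell), while Stmn1 did not rise. The part of mitotic cells in the Stmn1 fall was not tested.

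**Figure D3:**
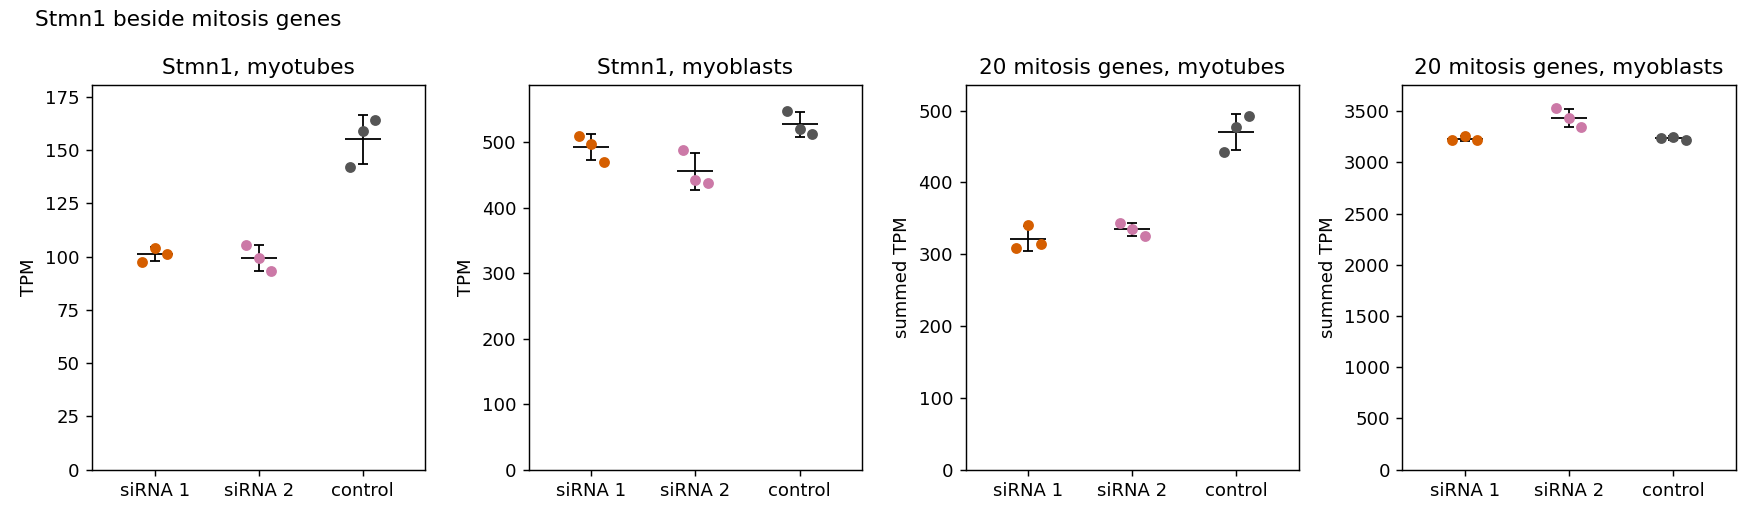
TPM of Stmn1 and summed TPM of 20 mitosis genes by siRNA in myotubes and in myoblasts; points are libraries, bars the mean ± SD of 3, and each axis starts at 0. In myotubes both measures are lower in all 6 depleted libraries than in all 3 controls (Stmn1 93.4 to 105 TPM against 142 to 164 TPM). In myoblasts Stmn1 TPM is also lower in all 6 (437.3 to 509.8 against 512.5 to 547.8 TPM), though in CPM the siRNA 1 libraries overlap the controls. The mitosis sum there is 3217 to 3259 TPM with siRNA 1 and 3345.5 to 3528 TPM with siRNA 2, against 3216.9 to 3252.5 TPM in controls. The measures thus do not move together in myoblasts.

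Map1a was at 266, 288 and 289 CPM with siRNA 1 and 311, 339.9 and 324 CPM with siRNA 2, against 272, 274 and 257 CPM in control myotubes. The siRNA 2 libraries lay above the controls (log2 0.28 ± 0.05, adjusted p = 0.00066), and those of siRNA 1 overlapped them (0.07 ± 0.05, adjusted p = 0.319). Map1b was at 1037, 1033 and 1020.4 CPM with siRNA 1 and 1041, 1168 and 1153 CPM with siRNA 2, against 1157, 1113 and 1042 CPM in control myotubes. Map1b did not pass with siRNA 1 (-0.10 ± 0.05, adjusted p = 0.195) or siRNA 2 (0.02 ± 0.05, adjusted p = 0.785); limma on TPM called the siRNA 1 value lower (-0.16, adjusted p = 0.0384). Ttl was at 41.7, 41.7 and 40.1 CPM with siRNA 1 and 34.3, 35 and 35.3 CPM with siRNA 2, against 40.6, 38.8 and 41.8 CPM in control myotubes. Ttl fell with siRNA 2 (log2 -0.21 ± 0.04, adjusted p = 0.00151), opposite to its rise in myoblasts with the same siRNA, and had 0.03 ± 0.04 with siRNA 1 (adjusted p = 0.669).

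Map4 was at 1055, 1019.6 and 1018 CPM with siRNA 1 and 952, 976 and 965 CPM with siRNA 2, against 1076, 1097 and 1017 CPM in control myotubes. Map4 fell with siRNA 2 (log2 -0.14 ± 0.04, adjusted p = 0.0154), a call lost without control replicate 1 (0.0511) or 2 (0.0679) or siRNA 2 replicate 2 (0.0616) or 3 (0.0717). Among its transcripts, Map4-201 (log2 -0.22 ± 0.06, adjusted p = 0.0413) and Map4-205 (-0.16 ± 0.04, adjusted p = 0.0175) fell. The long-exon Map4-202 did not pass, with -0.05 ± 0.10 (adjusted p = 0.887) and 152 ± 2.97 TPM with siRNA 2 against 170.2 ± 9.69 TPM in controls (SD, n = 3 each), and whether the transcripts differ in their change was not tested. Map4-202 had a share of 35.8, 36.4 and 35.7% with siRNA 1 and 36, 37.3 and 37.1% with siRNA 2, against 35.3, 35.7 and 34.1% in controls. Over all 10 genes, 2 transcripts fell with siRNA 1 (3.43% of all transcripts called, 1.74% higher and 1.68% lower), and 2 rose and 4 fell with siRNA 2 (6.77%, 3.69% higher and 3.09% lower). The siRNA 1 count was 1 without control replicate 2 or the NT_2-named control replicate 3. The 6 myotube markers summed to 12803 to 13406 TPM with siRNA 1 and 12159 to 12261 TPM with siRNA 2, against 11751 to 12431 TPM in controls.

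Vash2 was at 69.2, 58 and 60.8 CPM with siRNA 1 and 71.7, 67.2 and 62.7 CPM with siRNA 2, against 66.5, 58 and 60.6 CPM in control myotubes. The vasohibin gene overlapped its controls with both siRNAs (0.02 ± 0.08, adjusted p = 0.869, and 0.12 ± 0.08, adjusted p = 0.247); with prefix in the model the siRNA 2 value was 0.18 and passed (adjusted p = 0.00452). Vash1 was at 8.40, 7.57 and 7.57 CPM with siRNA 1 and 9.18, 6.0 and 5.23 CPM with siRNA 2, against 6.53, 5.74 and 7.12 CPM in control myotubes. Relative to its mean, Vash1 varied most between libraries of a group, with an SD of 2.09 CPM around a mean of 6.80 CPM with siRNA 2. Its siRNA 1 libraries lay above the controls, with 0.28 ± 0.19 (adjusted p = 0.331), and 0.40 with prefix in the model (adjusted p = 0.0146). Svbp, Hdac6 and Atat1 did not pass with either siRNA. Svbp had 0.12 ± 0.06 and 0.06 ± 0.06, Hdac6 0.00 ± 0.05 and 0.04 ± 0.05, and Atat1 -0.04 ± 0.07 and -0.16 ± 0.07; limma on TPM called Atat1 lower with siRNA 2 (-0.23, adjusted p = 0.0359).

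The depletion effect differed between the stages for 6 of the 10 genes, each more negative in myotubes (12.8% of 16930 genes were called in that direction and 10.6% in the other, together 23.4%). This was tested as the mean effect of both siRNAs in myotubes minus that in myoblasts, in 1 fit of all libraries. The difference was -0.48 ± 0.07 on the log2 scale for Vash2 (adjusted p = 5.8e-05), -0.38 ± 0.05 for Map1a (3.06e-05) and -0.37 ± 0.06 for Map1b (8.56e-05). It was -0.28 ± 0.04 for Ttl (0.000121), -0.19 ± 0.04 for Map4 (0.00216) and -0.47 ± 0.07 for Stmn1 (3.54e-05). Atat1 had -0.21 ± 0.10 and did not pass (adjusted p = 0.134), nor did Vash1, Svbp and Hdac6. For Map1a the order of the means turned round. With siRNA 1 and siRNA 2 it was at 287 ± 15.6 and 333 ± 17.3 CPM in myotubes, below 338 ± 4.89 and 378 ± 5.45 CPM in myoblasts (SD, n = 3 each). Control myotubes lay above control myoblasts. With the same siRNA the stages did not overlap, but myotubes with siRNA 2 (316.3, 350.9 and 332.7 CPM) overlapped myoblasts with siRNA 1 (334.4, 334.9 and 343.1 CPM). Depleted myotubes were not tested against depleted myoblasts.

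**Figure D4:**
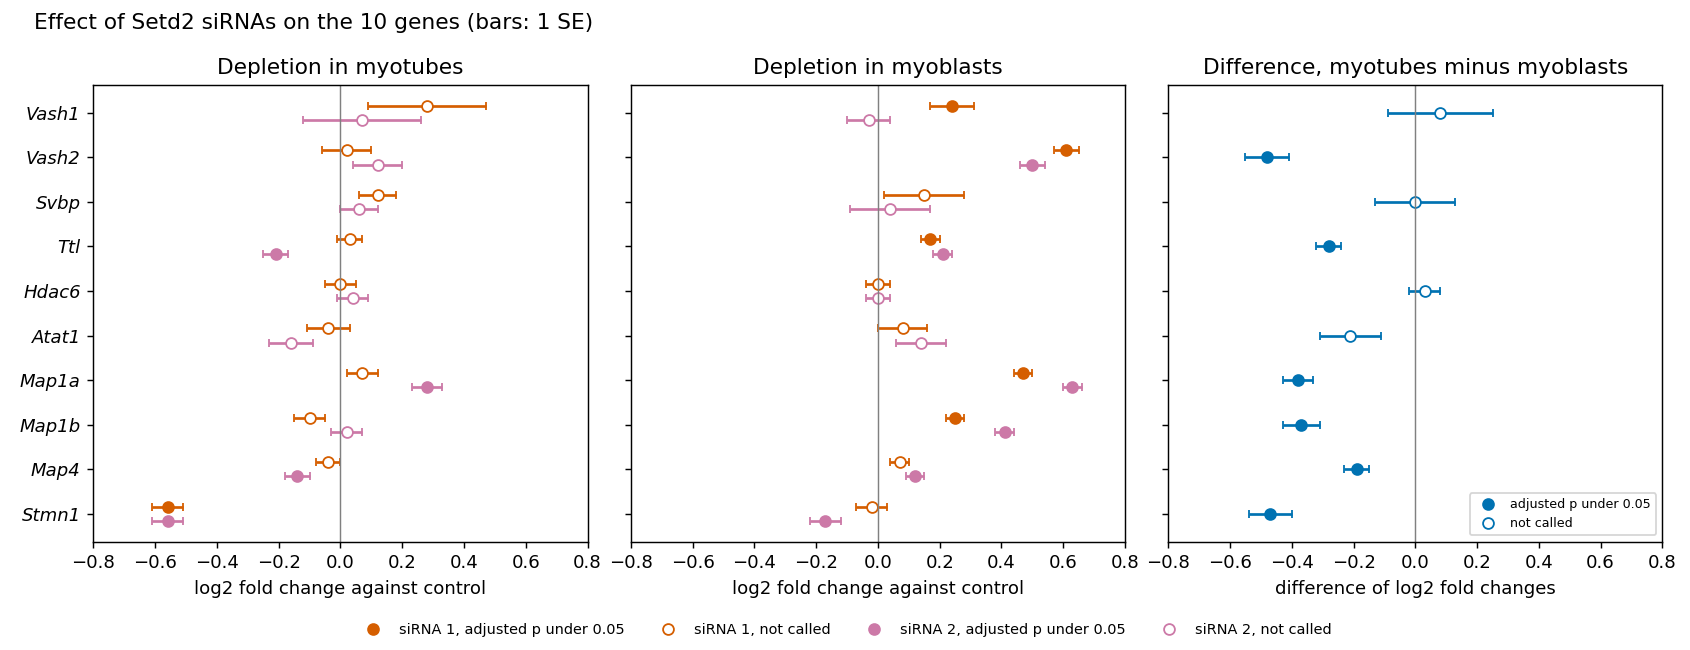
Log2 fold change against control (horizontal axis, ± 1 SE) of each gene with siRNA 1 and siRNA 2 in myotubes and in myoblasts, and the difference of the effect between stages; filled points passed an adjusted p under 0.05. Vash2, Ttl, Map1a and Map1b are filled and above 0 with both siRNAs in myoblasts, Stmn1 is filled at -0.56 with both in myotubes, and the 6 filled differences are all below 0.

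The siRNAs also differed from each other. In myoblasts 4 of the 10 genes separated siRNA 2 from siRNA 1 (26.3% of all genes, 12.1% higher and 14.3% lower). Map1a and Map1b were higher with siRNA 2, by 0.16 ± 0.03 (adjusted p = 0.00123) and 0.16 ± 0.03 (0.00326). Vash1 and Stmn1 were lower with siRNA 2, with log2 differences of -0.27 ± 0.07 (0.0135) and -0.14 ± 0.05 (0.039); both calls were lost without siRNA 1 replicate 1, siRNA 2 replicate 2 or the SETD3-named siRNA 2 replicate 3, each of which left 2 genes, and that of Stmn1, whose groups overlapped, also without control replicate 2 or siRNA 1 replicate 2 and in limma on TPM (-0.11, adjusted p = 0.13). In myotubes Map1a was higher with siRNA 2 (0.21 ± 0.05, adjusted p = 0.00794) and Ttl lower (-0.24 ± 0.04, adjusted p = 0.00138), 2 of 10 beside 17.1% of all genes (7.76% higher and 9.36% lower). Without myotube siRNA 2 replicate 1 that count was 4.

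Ratios of opposing enzymes within a library need no scaling between libraries. The ratio of Vash1 plus Vash2 to Ttl, in TPM, was 2.24, 1.99 and 1.97 with siRNA 1 and 2.91, 2.59 and 2.24 with siRNA 2 in myotubes, against 2.04, 2.0 and 1.96 in control myotubes. In myoblasts it was 1.59, 1.49 and 1.54 with siRNA 1 and 1.48, 1.29 and 1.38 with siRNA 2, against 1.28, 1.22 and 1.22 in controls. All 6 depleted myoblast libraries were above all 3 controls (log2 difference 0.23, two-sided exact permutation p = 0.0238, the smallest that 6 against 3 can give, 0.0952 after adjustment over 4 ratios). In myotubes the difference was 0.20 (exact permutation p = 0.167, adjusted 0.214). The ratio of Atat1 to Hdac6 was 2.06, 2.03 and 1.98 with siRNA 1 and 1.87, 2.20 and 2.02 with siRNA 2 in myotubes, against 2.07, 2.27 and 2.12 in controls. In myoblasts it was 0.559, 0.529 and 0.456 with siRNA 1 and 0.581, 0.511 and 0.555 with siRNA 2, against 0.513, 0.472 and 0.485 in controls. Its log2 differences of -0.09 and 0.12 did not pass (exact permutation p = 0.143 and 0.214). None of the 4 ratios passed after adjustment. A ratio that reached the smallest exact p alone could not have passed over 4 ratios. The adjusted value therefore does not decide on the vasohibin ratio in myoblasts.

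**Figure D5:**
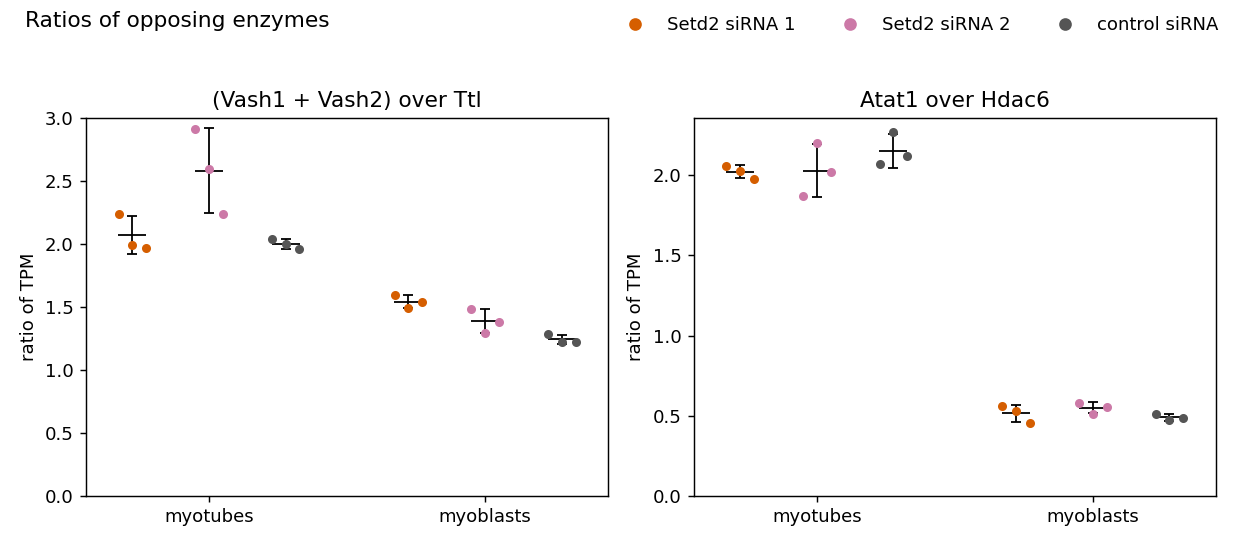
Ratio of TPM of Vash1 plus Vash2 to Ttl and of Atat1 to Hdac6 in each library, by stage and siRNA; bars are the mean ± SD of 3 libraries and axes start at 0. Both ratios are higher in all myotube libraries than in all myoblast libraries. For Vash1 plus Vash2 to Ttl, all 6 depleted myoblast libraries lie above their controls. None of the 4 comparisons passed after adjustment, which a comparison that separated fully alone could not have done.

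Other genes of the same pathways were counted from lists chosen with earlier results of these data known. Of 22 further tubulin-modifying enzymes, 20 matched a gene, and 11 were tested in myoblasts and 12 in myotubes. In myoblasts 4 rose and 1 fell with each siRNA (7.69% and 4.25% of all genes), and in myotubes 2 rose and none fell with each (7.14% and 6.27% of all genes). Ttll7, Ttll1 and Ttll5, members of the ligase-like family that adds glutamates to tubulin tails, rose in myoblasts. Ttll7 was at 35.2, 35.5 and 35.5 TPM with siRNA 1 and 38, 38.5 and 35.8 TPM with siRNA 2, against 31.3, 30.01 and 33 TPM in controls (log2 fold changes 0.30 ± 0.03 and 0.34 ± 0.03, adjusted p = 2.86e-05 and 4.04e-06). Ttll1 rose in both stages, by 0.33 ± 0.05 and 0.34 ± 0.05 in myotubes and by 0.24 ± 0.04 and 0.31 ± 0.04 in myoblasts. On differentiation 7 of 12 tested rose and 4 fell, beside 39.4% and 38.1% of all genes. Among the rises, Ttll11 and the deacetylase gene Sirt2 were higher by 1.23 ± 0.11 and 1.10 ± 0.04. Ttll13 was higher by 1.57 ± 0.47, at only 0.543 ± 0.29 TPM in control myotubes (SD, n = 3).

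Of 30 further microtubule-binding proteins, 24 were tested in myoblasts, where 5 rose and 1 fell with each siRNA, beside 7.69% and 4.25% of all genes. In myotubes 26 were tested, of which 2 rose and none fell with each, and 2 of 26 is near the 7.14% of all genes that rose. Stmn4, a stathmin relative best known in neurons, was at 35, 35.2 and 29.2 TPM with siRNA 1 and 30.4, 25.4 and 29.7 TPM with siRNA 2, against 20.4, 16.3 and 14.2 TPM in control myoblasts. It rose by 1.03 ± 0.11 and 0.79 ± 0.11 (adjusted p = 8.59e-05 and 0.000246), where Stmn1 did not. Tppp3, a tubulin polymerisation promoter, rose by 0.43 ± 0.06 and 0.72 ± 0.06, and Dclk2, a doublecortin-like kinase, had -0.27 ± 0.06 and -0.46 ± 0.06. On differentiation 12 of 26 rose and 11 fell, with a median log2 fold change of -0.01 (39.4% and 38.1% of all genes). Mapt, which encodes tau, was at 10.8, 12.9 and 10.9 TPM in control myotubes, against 0.387, 0.628 and 0.449 TPM in control myoblasts (log2 4.64 ± 0.15, adjusted p = 1.98e-16).

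Smaller groups gave mixed counts, beside 7.69% of all genes rising and 4.25% falling with each siRNA in myoblasts, and 7.14% rising and 6.27% falling with each in myotubes. Of 8 tested severing genes, Spast rose with each siRNA in myoblasts (0.13 ± 0.04 and 0.27 ± 0.04), and Fignl1 and Katnal1 fell with each in myotubes. Of 3 tested kinases that detach MAPs, Mark2 fell with each siRNA in myoblasts (-0.23 ± 0.03 and -0.34 ± 0.03). Of 6 tubulin-folding cofactors, Tbcel fell with each in myoblasts and rose with each in myotubes. Of the tubulins themselves, 4 of 10 tested rose with each siRNA in myoblasts and 2 of 11 fell with each in myotubes. In myotubes, 2 fell and none rose with siRNA 1 (9.57% and 11% of all genes). With siRNA 2, 7 fell and 1 rose there (16.4% and 15.8% of all genes). The depletion effect was more negative in myotubes for 8 of 11 and more positive for none (12.8% and 10.6% of all genes). Tubb3 was at 41.5, 48.1 and 45.7 TPM with siRNA 1 and 47.9, 42.5 and 38.6 TPM with siRNA 2 in myotubes, against 60.7, 75.7 and 75.8 TPM in controls. In myoblasts it was at 166, 167 and 159 TPM with siRNA 1 and 214, 224 and 214 TPM with siRNA 2, against 142, 155 and 144 TPM in controls, so it was lower in depleted myotubes and higher in depleted myoblasts.

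Within stages the members varied together to different degrees. Over the 18 libraries, after the mean of each stage was subtracted from log2 CPM, Pearson's r was 0.87 between Map1a and Map1b, 0.81 between Vash2 and Map1a and 0.71 between Vash2 and Map1b. Hdac6 had no r above 0.19 with another member, and Map1a and Stmn1 had -0.43. These libraries share their siRNA groups and their scaling, so r describes them and carries no test. Among 16930 genes, Vash2 was most like Spg21 (0.961), Map1a like Mapk6 (0.968), Map1b like Galnt7 (0.968) and Stmn1 like Dbf4 (0.974). Ttl was most like Parva (0.919) and Map4 like Adgrg2 (0.925), while the closest gene to Hdac6, Ptp4a1, reached 0.749.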

How the data were processed

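PolyA-selected RNA of 18 libraries, 6 groups of 3, was sequenced. The authors deposited, per the file headers, an estimated count and a TPM value for each transcript; no source names the quantifier, annotation or strandedness, and the submitters' processing notes name mm10 and DESeq2 without a role. Of 115088 transcripts, 114200 matched GENCODE M21 and were summed to 47311 genes; the 888 others held 0.16% to 0.24% of counts and were left out. Summed estimated counts were rounded, filtered (edgeR filterByExpr, minimum count 10), scaled by TMM and tested with edgeR 4.0.16 (quasi-likelihood, robust, Benjamini-Hochberg over all features tested, threshold 0.05) in R 4.3.3. Each stage was fitted on its 9 libraries (6 residual degrees of freedom); stage comparisons and transcripts were fitted on all 18 (12 residual degrees of freedom). SE is the log2 fold change divided by the square root of F. CPM within a stage comes from that stage's scaling, and between stages from the scaling of all libraries.

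Alternatives were RLE size factors, no filter, DESeq2 1.42.0, the replicate number as a block, the library name prefix as a term, limma 3.58.1 on log2(TPM + 0.1) with TPM of at least 1, and leaving out each library. TPM ratios were tested by exact permutation (scipy 1.17.1, Python 3.11.15). The scripts were tested on simulated data. Counts of replicate libraries differed by 1.53 to 7.75 times the counting noise, and no pair was identical. The members and lists were chosen with earlier results of these data known. From each further list the text names at most 3 genes a comparison, those with the largest changes among genes called (with each siRNA, for depletion), and for the members the transcripts holding at least 10% of a gene's counts.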

Additional observations from a re-analysis of the deposited data

Results flagged for a closer look

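For 6 of the 10 genes the effect of depletion differed between the stages by a test of the difference itself (edgeR's quasi-likelihood test on all 18 libraries, 23.4% of all genes called). The effect in myotubes minus that in myoblasts was -0.48 on the log2 scale for Vash2, -0.47 for Stmn1, -0.38 for Map1a, -0.37 for Map1b, -0.28 for Ttl and -0.19 for Map4. All 6 were called when any single library was left out. Stage and library name prefix cannot be told apart.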

How the results depend on the processing

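Under RLE size factors, no filter and DESeq2, the calls of all 10 genes in all 8 comparisons matched those reported. With limma on log2(TPM + 0.1), 3 genes were called with siRNA 1 in myoblasts (5 as reported), 2 with siRNA 1 in myotubes (1 as reported), and 5 transcripts with siRNA 1 in myotubes (2 as reported). With the prefix in the model, 2 genes were called with siRNA 1 in myotubes (Vash1 gained, adjusted p = 0.0146) and Vash2 was gained with siRNA 2 (0.00452); in myoblasts Map4 (0.0255) and Stmn1 (0.0406) were gained with siRNA 1 and Vash2 between the siRNAs (0.0166). The cause was not tested. No called value changed sign; sign changes of values called in neither fit were not counted. Leaving out each library gave 4 to 5 genes with siRNA 1 and 5 to 6 with siRNA 2 in myoblasts, 1 to 2 (2 without myotube siRNA 2 replicate 1) and 3 to 4 in myotubes, 2 to 5 and 2 to 4 between the siRNAs in myoblasts and in myotubes, 10 between stages and 6 for the difference. Transcript counts ranged over 3 to 7 and 8 to 9 in myoblasts, 1 to 3 and 4 to 6 in myotubes, and 29 to 33 between stages. The log2 ratio differences of the vasohibins to Ttl ranged over 0.13 to 0.25 in myotubes and 0.21 to 0.27 in myoblasts, and those of Atat1 to Hdac6 over -0.12 to -0.05 and 0.09 to 0.16. Replicate numbers did not meet the bar for pairing (r over 0.1 in every pair). Deviations of same-numbered libraries had r over 0.1 in 7 of 9 pairs in each stage, with lowest values of -0.36 in myotubes and -0.48 in myoblasts. Their medians were 0.22 and 0.52, against -0.135 and -0.415 for different-numbered pairs. A library matched its own number best in 9 of 18 and 11 of 18 cases. The sign of r followed the library name prefix instead. In each stage it was positive for every same-prefix pair and negative for every pair of different prefixes. Myoblast siRNA 1 replicate 2 (C14) had 0.58 with siRNA 2 replicate 1 (C14) and -0.48 with siRNA 2 replicate 2 (D2). The main fits had no term for the prefix. With the replicate block, 6 and 6 genes were called in myoblasts, 1 and 5 in myotubes, 5 and 2 between the siRNAs in myoblasts and in myotubes, 10 between stages and 6 for the difference. TPM gave 1606 higher and 2784 lower genes with siRNA 2 in myoblasts (2658 and 2564 by edgeR), and 766 and 1788 with siRNA 1 (1766 and 1540) and 1175 and 3720 with siRNA 2 (2545 and 2640) in myotubes.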

Other observations

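Svbp-201 held 95.6%, 96.1% and 96.2% of Svbp counts with siRNA 1 and 92.3%, 94.8% and 91.1% with siRNA 2, against 97.4%, 97.5% and 97.4% in control myoblasts. All 6 depleted libraries were below the controls in this share, which was not tested. Svbp-201 itself did not pass in myoblasts with siRNA 1 (log2 0.14 ± 0.12) or siRNA 2 (-0.01 ± 0.12). Atat1 counts were spread over more transcripts, and their shares varied widely between libraries of a group. Atat1-212 held 17.9%, 18.5% and 33.7% in control myotubes, against 14.5%, 4.31% and 7.55% in control myoblasts. Atat1-203 was listed at 0 in all 9 myotube libraries and also in 1 of the 3 control myoblast libraries.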
